A study of Mus musculus with 32 samples.

Results

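The macrophage polarization genes described here were Arg1, Nos2, Ptgs2, Chi3l3, Retnla, Mrc1, Trem1, Trem2 and Gpnmb. They were chosen by name, as every probe that was not a control and whose gene name in the scanner files was one of these. No measured value entered this rule, but the genes were named with earlier results of these data known. Each gene had 1 probe, so that they made up 9 of the 34821 gene names on the array. Their mRNA was measured in 32 samples on 16 Agilent mouse arrays, each of which carried a Cy3 and a Cy5 sample. The liver cells came from young male Balb/c mice that had received C26 cells, a colon carcinoma line of the same strain, into the spleen, or PBS in the controls. The 8 groups of 4 samples were control and tumor microenvironment (TME) endothelial cells (EC and ET), control and TME Ito cells (IC and IT), which are the stellate cells of the liver, control and TME Kupffer cells (KC and KT), which are its resident macrophages, tumor liver metastasis cells (TM) and colorectal cancer primary cells (TP). Endothelial and Ito cells were enriched from perfused livers on density gradients and Kupffer cells were parted from them by adherence, and all were kept in serum-containing medium for up to a day before use. How the TM and TP cells were obtained is not given in the sources used here. On each array the Cy3 channel held a control or TM sample and the Cy5 channel a TME or TP sample. No dye was swapped, so that dye and condition cannot be told apart.

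Macrophages answer interferon and bacterial products with a classical program, of which nitric oxide synthase Nos2 is the usual sign, and the cytokines IL-4 and IL-13 with an alternative program, which in the mouse includes Arg1, Chi3l3 (Ym1), Retnla (Fizz1) and the mannose receptor Mrc1. Arg1 and Nos2 compete for arginine, which Arg1 splits into ornithine and urea and Nos2 turns into nitric oxide. Ptgs2 makes the prostaglandin precursor in inflamed tissue, Trem1 amplifies inflammatory signals, and Trem2 and Gpnmb are surface proteins of lipid-laden and tumor-associated macrophages. In the liver, Arg1 is also a urea cycle enzyme of hepatocytes and Mrc1 a scavenger receptor of sinusoidal endothelial cells, so that neither marks macrophages alone.

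All values are log2 levels, the log2 of the intensity of a single probe after quantile normalization, and they are compared between samples and not between genes. Between 38.4 and 57.1% of the spots of a sample were well above background. Above background means well above it throughout, by the scanner's flag. Slide 1 held the arrays of endothelial and Ito cells and slide 2 those of Kupffer cells and of TM and TP, so that slide and cell type cannot be told apart for Kupffer cells. Array 4 ran against the others in Ito and in Kupffer cells: over 17104 probes its TME minus control difference correlated with the mean of the other arrays at r = -0.66 (Ito) and r = -0.60 (Kupffer), whereas arrays 1 to 3 had r of 0.188 to 0.285 in Ito and 0.409 to 0.468 in Kupffer cells and the 4 endothelial arrays 0.508 to 0.777. Between TP and TM, arrays 2 and 3 had r of 0.642 and 0.635, array 1 -0.196 and array 4 -0.065. KC replicate 4 differed by a mean root mean square of 0.253 from KT replicates 1 to 3 and of 0.619 from KC replicates 1 to 3, IC replicate 4 by 0.563 from IT and 0.696 from IC, and IT replicate 4 by 0.342 from IC and 0.767 from IT. KT replicate 4 was about as far from KT replicates 1 to 3 (0.441) as from KC replicates 1 to 3 (0.458). The labels and dyes were kept as given, and the members' tests in Ito and Kupffer cells are also given without the libraries labelled replicate 4. The EC libraries labelled replicates 1 and 4 differed by a root mean square of 0.118, less than the 0.121 between repeated spots of one probe, while the other EC pairs differed by 0.160 to 0.410. They were therefore counted as 1 sample in the EC means, and tests against EC are given both ways. IT replicate 2 and KC replicate 3 stood apart from their groups, with a mean level of the 12 Kupffer cell markers of 10.61 and 12.24, below every other sample of IT and KC. ET replicate 2 differed by 0.385 to 0.427 from the other ET samples, which differed by 0.167 to 0.223. Its mean level was 8.46 for erythrocyte and 7.90 for cycling cell markers, against 4.61 to 5.82 and 5.93 to 6.15 in the others. It had the highest Arg1, Chi3l3 and Trem2 of ET. The labels number the replicates without naming animals, so the p-values measure the spread between these samples, which may be technical.

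The 12 Kupffer cell markers, among them Clec4f, Cd5l and the C1q chains, were well above background in all 4 samples of every liver group, the endothelial and Ito fractions included. Their mean level was 11.20 to 11.45 in EC, 12.27 to 13.78 in IC and 12.24 to 13.98 in KC. In TM, 2 of the 12 were well above background in all 4 samples, and Clec4f, Vsig4, Timd4 and Clec1b in none. The 10 Ito (stellate) cell markers had a mean level of 8.01 to 8.52 in IC, lower than the 9.09 to 9.69 in EC. In KC their mean level was 7.85 to 8.23. Ito cells therefore means here the fraction so labelled. The 10 endothelial markers were well above background in all samples of KC and KT, with a mean level of 9.94 to 10.49 in KC. The 12 hepatocyte markers had a mean level of 7.68 to 9.54 in KC. The authors reported high purity of the fractions by immunochemistry for a marker protein of each cell type. A member's level in a liver sample is nevertheless that of a fraction that also held transcripts of other liver cell types. In endothelial and Ito samples these included Kupffer cell transcripts. In such bulk samples, fewer cells of a type and less RNA per cell cannot be told apart.

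Each gene was read through a 60-base probe, placed on mm9 by the array files. The probe of Arg1 lay at chr10:24636194-24636253 on the minus strand, that of Nos2 at chr11:78773567-78773626 on the plus strand, that of Ptgs2 at chr1:151954744-151954803 on the plus strand and that of Chi3l3 at chr3:105950485-105950544 on the minus strand. On the plus strand were the probes at chr16:48844447-48844506 for Retnla, chr2:14253273-14253332 for Mrc1, chr17:48385849-48385908 for Trem1 and chr17:48491537-48491596 for Trem2. Trem1 and Trem2 are neighbours on chromosome 17. The files count the probe starts from base 470 of the transcript for Retnla to base 4940 for Mrc1, and exon and untranslated region were not analysed here. The first 30 bases of the probes are shown for 4 of the genes on which the TME comparisons turn.
Arg1: aactctgggaattaagtatttctccatgac
Chi3l3: tgaacatcttttgcttcctgtaaaaccacc
Retnla: gatgaatctaacaaaaactgcagtctcaat
Trem2: acagctggatggttgtctgtcaacttctgc

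**Figure D1:**
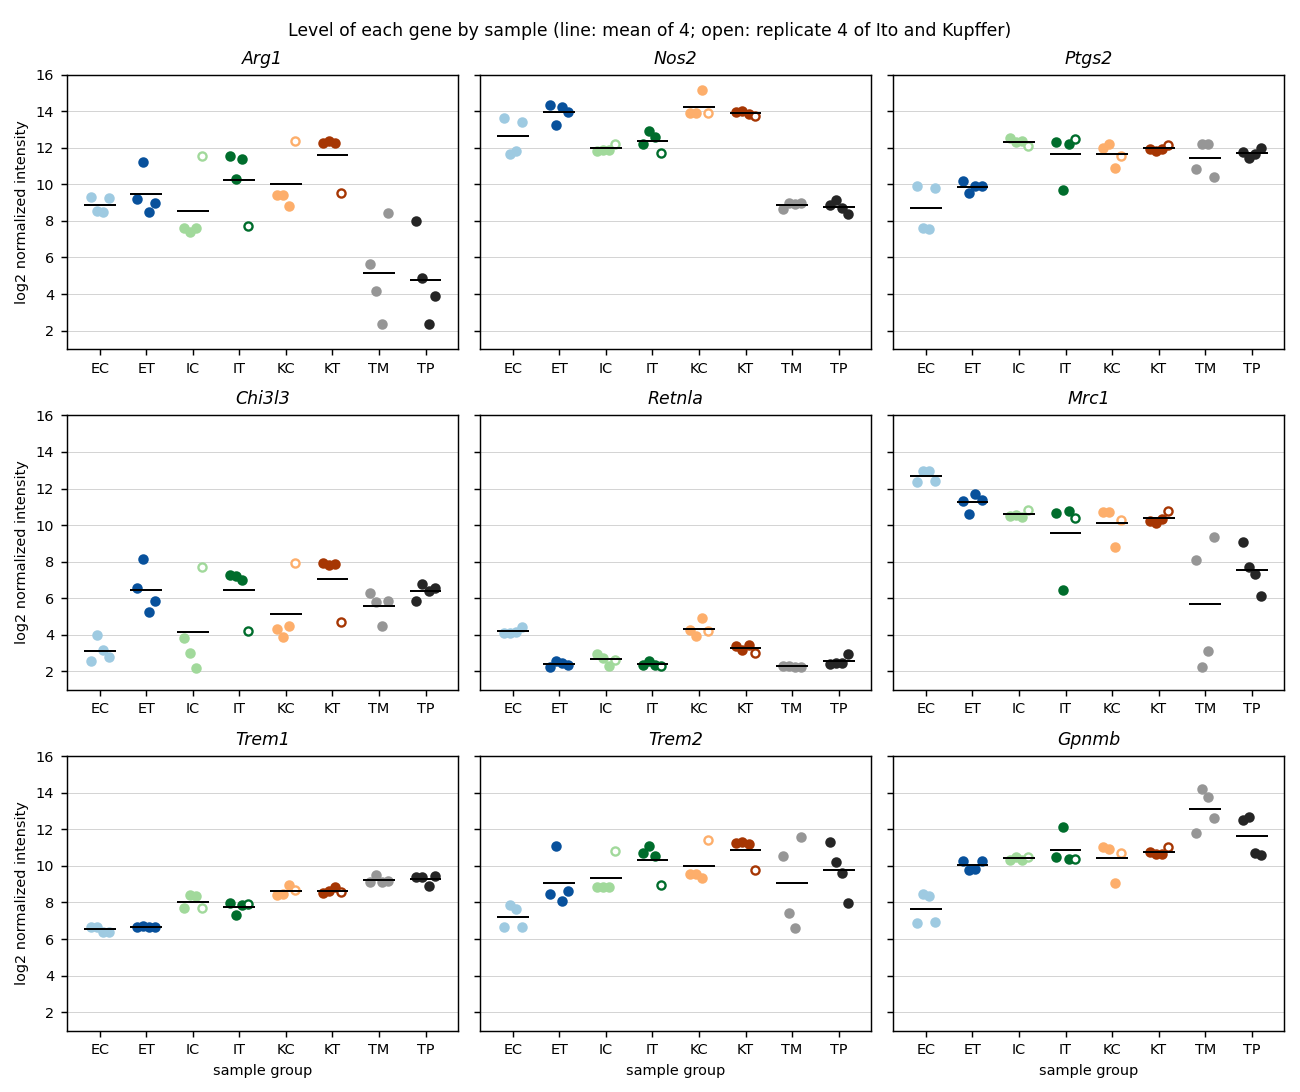
Log2 normalized intensity of each gene in every sample of the 8 groups. Points are samples, lines are means of 4, and open points are replicate 4 of the Ito and Kupffer groups. For Arg1, Chi3l3 and Trem2 the open points of IC and KC lie above, and those of IT and KT below, the other samples of their group.

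The first question was what the tumor-bearing liver did to these genes in each cell type. In endothelial cells Gpnmb was higher and Retnla lower in TME samples, while the rise of Chi3l3 and Nos2 missed the threshold with all samples. With EC replicates 1 and 4 counted as 1 sample, Nos2 passed and Gpnmb did not, while Retnla was still called lower. The Gpnmb call was lost in 5 of 18 alternative settings of the analysis, this one included. In Ito and Kupffer cells Arg1, Chi3l3 and Trem2 were each higher in the TME sample on arrays 1, 2 and 3 and lower on array 4, so that with all samples none of them passed the test in either cell type, and without replicate 4 Chi3l3 passed in both. Ptgs2 and Trem1 did not pass in any of the 3 cell types.

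In counts, 1 member was called higher and 1 lower in ET, where 0.578% of the 55681 probes were higher and 0.564% lower. None was called by limma in Ito cells, where 0.269% of all probes were higher and 0.0198% lower, and 1 had an unadjusted p under 0.05 there, while the methods' t-test, run for each probe alone, called none after adjustment. In Kupffer cells 1, Retnla, was called lower, where 0.0647% of all probes were lower and 0.372% higher. Without replicate 4 of the Ito and Kupffer groups, 1 member was higher in IT, against 3.69% of all probes with 3.97% lower, and 1 higher and 1 lower in KT, against 1.75 and 2.10%. In ET, 2 were then higher and 1 lower, against 0.835 and 0.806%. With EC replicates 1 and 4 counted as 1 sample 1 was higher, Nos2, and 1 lower, Retnla, against 0.356 and 0.321%. The groups did not overlap for 5 of 9 members in endothelial cells, against 13.0% of all probes, for none in Ito cells (8.92%) and for 1 in Kupffer cells (7.06%). Without replicate 4 5 members did not overlap in Ito cells (34.3% of all probes) and 4 in Kupffer cells (30.7%). When the TME change was compared between cell types, 1 of 9, Retnla, passed for Ito minus endothelial cells, as did 0.111% of all probes, and no member passed for Kupffer minus endothelial (0.0808%) or Kupffer minus Ito cells (0.00359%). That difference of 1.54 ± 0.23 (adjusted p = 0.00376) rests on Ito and ET levels not well above background. It did not pass without replicate 1 of all groups, with an adjusted p of 0.113, or without replicate 2, with an adjusted p of 0.0620. With normexp background correction it was 0.20 after quantile and 0.28 after loess normalization, and did not pass in either.

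Arg1, the arginase, followed the arrays closely. Its log2 level in IC replicates 1 to 4 was 7.64, 7.38, 7.63 and 11.53, and in IT it was 11.55, 10.27, 11.39 and 7.71. The library labelled IC replicate 4 was thus at the level of IT replicates 1 to 3, and IT replicate 4 at that of IC replicates 1 to 3. In KC the levels were 9.41, 9.44, 8.80 and 12.34, and in KT 12.28, 12.37, 12.28 and 9.50, with the same exchange of replicate 4. The fitted TME minus control difference was 1.68 ± 1.22 (SE) in Ito cells, with a limma adjusted p of 0.684, and 1.61 ± 1.22 in Kupffer cells, with an adjusted p of 0.859. Without replicate 4 it was 3.52 ± 1.15 in Ito cells (adjusted p = 0.0660) and 3.096 ± 1.15 in Kupffer cells (adjusted p = 0.154). The groups then no longer overlapped, but the difference did not pass the test that pools the spread of all groups. The Ito value passed, with an adjusted p of 0.0404, where replicate 4 was left out of all 8 groups.

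In endothelial cells Arg1 was at 9.28, 8.52, 8.47 and 9.26 in EC and at 9.22, 11.24, 8.48 and 8.97 in ET. ET replicate 2 alone was above all EC samples, and the groups overlapped, with a difference of 0.60 ± 1.22 and an adjusted p of 1.00. The hepatocyte markers, which bear on Arg1 as a urea cycle gene, had a mean level of 10.63 to 11.31 in IC and 10.08 to 11.31 in IT. Over these 12 genes, 12 in IC and 10 in IT were well above background in all 4 samples. Their part in the Arg1 levels was not tested.

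Nos2, which makes nitric oxide from the same arginine, was high in every liver sample. In EC it was at 13.60, 11.67, 11.81 and 13.43, and in ET at 14.35, 13.22, 14.25 and 13.94. The ET samples were higher than the EC sample on all 4 arrays, but ET replicate 2 was below EC replicates 1 and 4, so that the groups overlapped. The difference was 1.31 ± 0.36, with an adjusted p of 0.0834, and 1.61 ± 0.36, with an adjusted p of 0.0313, when EC replicates 1 and 4 were counted as 1 sample. It also passed without ET replicate 2, at 1.55 with an adjusted p of 0.0422, and without KC replicate 3, which enters only through the shared estimate of the spread, with an adjusted p of 0.0455. In Ito cells Nos2 was at 11.83, 11.89, 11.90 and 12.22 in IC and 12.20, 12.94, 12.57 and 11.71 in IT, and in Kupffer cells at 13.92, 13.89, 15.17 and 13.89 in KC and 13.96, 14.00, 13.84 and 13.71 in KT. Neither passed the test, with adjusted p-values of 0.779 and 0.936, or of 0.394 and 0.802 without replicate 4, and KC replicate 3 was the only sample above 15. The difference of the TME change between Kupffer and endothelial cells was -1.65 ± 0.51, with an adjusted p of 0.615.

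Of 13 other genes of arginine and nitric oxide metabolism, none was higher and 1 lower in ET, where 1.14% of all probes passed, with a list median of 0.02 beside 0.01 over all probes. The 1 lower was the urea cycle gene Otc, above background in all EC and in no ET sample. Otc is also 1 of the 12 hepatocyte markers, whose mean level was 8.46 to 8.81 in EC and 7.06 to 7.39 in ET, without overlap, with Cps1, Otc and Tdo2 above background in no ET sample. The part of hepatocyte transcripts in the Otc difference was not tested. Without replicate 4 of the Ito and Kupffer groups, Odc1, the ornithine decarboxylase that follows Arg1, was higher by 1.51 in ET (adjusted p = 0.00400) and lower by 1.63 in IT (adjusted p = 0.00316). The arginine carrier Slc7a2 was also lower in IT then, by 1.23 (adjusted p = 0.0376). Of all probes, 1.64% passed in ET and 7.66% in IT in that setting. With all samples, no gene of the list passed in Ito or in Kupffer cells.

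Ptgs2, the inducible cyclooxygenase, did not pass the test in any TME comparison. In EC it was at 9.92, 7.60, 7.56 and 9.77 and in ET at 10.18, 9.53, 9.89 and 9.89, a difference of 1.16 ± 0.53 with an adjusted p of 0.576. EC replicates 1 and 4 lay within the range of ET, and EC replicates 2 and 3 far below it, and the ET sample was the higher on all 4 arrays. In Ito cells Ptgs2 was between 12.10 and 12.52 in IC and at 12.29, 9.69, 12.18 and 12.46 in IT. Without replicate 4 all IT samples lay below all IC samples, with a difference of -1.02 ± 0.64 and an adjusted p of 0.415. In Kupffer cells the levels were 10.90 to 12.18 in KC and 11.83 to 12.15 in KT, and the difference without replicate 4 was 0.20 with an adjusted p of 1.00. Of the 14 other genes of the prostaglandin pathway, none passed in any of the 3 cell types with all samples. Without replicate 4, Ptgs1 (1.63) and the receptor Ptger2 (1.72) were higher in IT and Ptges3 (-0.89) lower.

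Chi3l3, the secreted chitinase-like lectin Ym1, was mostly not well above background in control samples. In EC it was at 2.54, 3.98, 3.16 and 2.76, well above background on 1 of 4 arrays, and in ET at 6.55, 8.13, 5.24 and 5.86, above background on all 4. Every ET sample was above every EC sample. The difference was 3.33 ± 0.99 with an adjusted p of 0.127 with all samples, and 3.33 ± 0.48 with an adjusted p of 0.000218 without replicate 4 of the Ito and Kupffer groups, which enter the shared spread only. The call in endothelial cells thus rests on whether those 4 libraries are in the fit. When only EC and ET were fitted the adjusted p was 0.0257, and with EC replicates 1 and 4 counted as 1 sample the difference was 3.18 ± 1.09 with an adjusted p of 0.331.

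In Ito cells Chi3l3 was at 3.84, 2.99, 2.19 and 7.69 in IC and at 7.29, 7.22, 6.98 and 4.24 in IT. In Kupffer cells it was at 4.33, 3.87, 4.48 and 7.92 in KC and at 7.91, 7.80, 7.89 and 4.68 in KT. In both cell types the control library labelled replicate 4 was at the level of TME replicates 1 to 3, and the TME library labelled replicate 4 close to that of control replicates 1 to 3. With all samples the differences were 2.25 ± 0.99 (adjusted p = 0.456) and 1.92 ± 0.99 (adjusted p = 0.704). Without replicate 4 the difference in Kupffer cells was 3.64 ± 0.55, with an adjusted p of 0.000539. In Ito cells none of the 3 remaining IC samples was well above background, and Chi3l3 was at least 2.66-fold higher in IT, with an adjusted p of 4.87e-05. Such a bound sets the mean of the bright group against the lowest signal that any probe above background had on an array of the dim group, or the probe's own signal there if higher, averaged over those arrays, in values normalized by loess within and Aquantile between arrays, and it is open to dye bias because no dye was swapped. The probe of the near-identical gene Chi3l4 was not well above background in any sample, and its level lay between 1.92 (KT replicate 2) and 3.67 (IC replicate 4).

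Retnla, the small secreted protein Fizz1, went the other way. It was at 4.08, 4.11, 4.16 and 4.45 in EC, well above background in 3 of 4 samples, and at 2.25, 2.55, 2.45 and 2.36 in ET, in none. All ET samples were below all EC samples, and Retnla was at least 1.18-fold lower in ET, with an adjusted p of 1.60e-07, or 1.40e-06 with EC replicates 1 and 4 counted as 1 sample. In KC it was at 4.28, 3.95, 4.95 and 4.196, above background in 1 sample, and in KT at 3.37, 3.18, 3.47 and 3.02, in none. Here too the groups did not overlap, array 4 included, and Retnla was lower in KT, with an adjusted p of 0.000455 with all samples and 0.00361 without replicate 4. No fold is given, because Retnla was well above background in only 1 of the 4 KC samples. The Kupffer call was lost where only KC and KT were fitted, with an adjusted p of 0.236, and in the methods' t-test (0.339). It was lost too with the replicate number, which samples of 1 array share, as a fixed block (0.412), while the call in ET was kept there (0.0113). In Ito cells no sample was well above background, between 2.29 and 2.94 in IC and 2.29 and 2.59 in IT, so that no fold is given.

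The promoters of Retnla and Trem2 are shown because Retnla was lower in ET, and in KT in the fit over all groups, while Trem2 followed Arg1 and Chi3l3 on the arrays. RefSeq's table (GRCm38.p6, 250 bases before the start) held 7 of the 9 genes, and not Arg1 and Nos2. Motifs were searched on both strands in all 32851 promoters of the table, and a match is only a description of the letters. In capitals are, for Retnla (chr16:48842359-48842608, plus strand), in order, a STAT6-type motif, TTC and GAA with 4 bases of any kind between them (5.85% of promoters), a C/EBP-type TTGCNNAA (9.56%) and the TATA box TATAAA (12.4%). For Trem2 (chr17:48346151-48346400, plus strand) they are an AP-1 motif TGANTCA (6.75%). The E-box CACGTG and the M-box TCATGTG were in none of the 7, while Ptgs2 also held the C/EBP-type letters.
Retnla promoter: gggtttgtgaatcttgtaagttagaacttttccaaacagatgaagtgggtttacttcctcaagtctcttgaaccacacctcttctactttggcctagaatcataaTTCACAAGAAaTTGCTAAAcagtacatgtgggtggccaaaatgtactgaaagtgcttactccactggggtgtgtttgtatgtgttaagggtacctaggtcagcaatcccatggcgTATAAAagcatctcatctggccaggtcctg
Trem2 promoter: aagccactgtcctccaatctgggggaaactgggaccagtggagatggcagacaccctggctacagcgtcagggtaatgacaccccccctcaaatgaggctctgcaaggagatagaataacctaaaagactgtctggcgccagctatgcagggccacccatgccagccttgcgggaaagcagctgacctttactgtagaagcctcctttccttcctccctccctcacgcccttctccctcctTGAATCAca

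Mrc1, the mannose receptor CD206, had its highest levels in endothelial cells. In EC it was at 12.36, 12.95, 12.93 and 12.40, and in ET at 11.31, 10.59, 11.69 and 11.37. The ET sample was lower on all 4 arrays and the groups did not overlap, but the difference of -1.43 ± 1.07 had an adjusted p of 1.00. The fit shares 1 spread over all 8 groups, and in TM Mrc1 ranged from 2.24 to 9.37. Where only EC and ET were fitted the adjusted p was 0.0226. The 10 endothelial markers were all well above background in EC and ET and had a mean level of 11.62 to 11.95 in EC and 10.96 to 11.53 in ET. Their part in the Mrc1 levels was not tested. In Ito cells Mrc1 was between 10.45 and 10.83 in IC and between 10.40 and 10.79 in 3 of 4 IT samples, with IT replicate 2 at 6.46. In Kupffer cells it was between 8.81 and 10.72 in KC and 10.13 and 10.76 in KT, with KC replicate 3 the lowest. Neither passed without replicate 4, with differences of -1.20 in Ito (adjusted p = 0.742) and 0.16 in Kupffer cells (adjusted p = 1.00).

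Beyond the members, 20 genes of classical and 23 of alternative activation were counted. In ET 0 of 20 and 1 of 23 passed, the latter being the chemokine Ccl22, above background in 3 EC samples and in no ET sample. With all samples none of either list passed in Ito or Kupffer cells, and their medians lay between -0.13 and 0.07, beside 0.00 over all probes. Without replicate 4 the IL-4 responsive regulator Irf4 was lower in IT by 0.98 (adjusted p = 0.0132) and in KT by 1.74 (adjusted p = 0.000189). The chemokine Ccl22 was lower in IT by 1.93 (adjusted p = 0.000259) and Myc by 0.83 (adjusted p = 0.0429). The lectin Clec10a was higher in IT by 2.44 (adjusted p = 0.0494), Il23a lower there by 2.84, and the costimulatory receptor Cd40 lower in KT by 1.18 (adjusted p = 0.0153). Over all 4 samples of each group, Ccl22 and Il23a were each well above background in 1 IT and 3 IC samples, and Clec10a in 3 and 1. The differences of Ccl22, Il23a and Clec10a therefore lie near background and are not measured sizes. In all, 1 classical and 4 alternative genes passed in Ito cells, where 7.66% of all probes did, and 1 of each in Kupffer cells, where 3.85% did.

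Trem1, the inflammatory amplifier of the TREM pair, was steady within each cell type. It was between 6.38 and 6.67 in EC and between 6.65 and 6.69 in ET, between 7.68 and 8.43 in IC and 7.29 and 7.97 in IT, and between 8.38 and 8.98 in KC and 8.52 and 8.83 in KT. The TME groups overlapped with their controls in all 3 cell types, and the adjusted p was 0.606 in Ito cells and 1.00 in the others. Without replicate 4 the differences were -0.45 in Ito (adjusted p = 0.210) and 0.05 in Kupffer cells (adjusted p = 1.00).

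Trem2, the lipid receptor that signals through the adaptor Tyrobp (DAP12), followed Arg1 and Chi3l3 on the arrays. In IC it was at 8.82, 8.86, 8.84 and 10.80, and in IT at 10.71, 11.09, 10.57 and 8.98. In KC it was at 9.58, 9.58, 9.32 and 11.40, and in KT at 11.27, 11.31, 11.21 and 9.75. In both cell types the 3 TME samples of arrays 1 to 3 lay above the control samples of those arrays by 1.69 to 2.23, and the library labelled replicate 4 turned the difference to -1.82 in Ito and -1.66 in Kupffer cells. Without replicate 4 the differences were 1.95 ± 0.96 (adjusted p = 0.260) and 1.77 ± 0.96 (adjusted p = 0.406). In endothelial cells Trem2 was at 6.64, 7.86, 7.67 and 6.67 in EC and 8.47, 11.09, 8.09 and 8.60 in ET, with ET higher on all arrays and the groups not overlapping. That difference of 1.85 ± 0.88 had an adjusted p of 0.627. Of 9 genes of TREM and DAP12 signalling none passed in any cell type with all samples. Without replicate 4, Pglyrp1, a ligand of Trem1, was higher in IT by 2.58 (adjusted p = 0.00786) and in KT by 2.25 (adjusted p = 0.0326), and Bcl10 (-0.86) and Malt1 (-2.07) were lower in IT. Over all 4 samples of each group, Pglyrp1 was well above background in 2 of IT, 1 of IC, 3 of KT and 1 of KC. Its differences therefore lie near background and are not measured sizes. Of 15 relatives of the members none passed in any cell type with all samples. Without replicate 4, Treml2 was higher in IT by 1.97 (adjusted p = 0.00220), where 7.66% of all probes passed. Trem3 was then higher in KT by 1.84 (adjusted p = 0.0302), where 3.85% did.

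Gpnmb, a glycoprotein of lysosome-rich macrophages, rose in endothelial cells. It was at 6.89, 8.44, 8.35 and 6.94 in EC and at 10.25, 9.77, 9.85 and 10.25 in ET. All ET samples were above all EC samples, and ET was higher by 2.37 ± 0.54, or 5.18-fold, with an adjusted p of 0.0217. With EC replicates 1 and 4 counted as 1 sample the difference was 2.13 ± 0.58 and no longer passed (adjusted p = 0.109). It also did not pass without replicate 1 of all groups (adjusted p = 0.343), without replicate 3 (0.0566) or without replicate 4 (0.299), nor with the replicate number as a fixed block (0.0835). In Ito cells Gpnmb was between 10.32 and 10.51 in IC and between 10.38 and 10.48 in IT, except for 12.15 in IT replicate 2. That sample had the 7 epithelial cell markers at a mean of 8.41, against 5.49 to 5.99 in the other IT samples. The tumor cells themselves were lower, at 5.32 to 6.004 in TM and 5.34 to 6.35 in TP. Epcam, Cdh1 and Cldn4 of this list were well above background in no TM or TP sample. The list thus did not single out the TM and TP cells. The part of epithelial or tumor cells in the Gpnmb level of IT replicate 2 was not tested. In Kupffer cells Gpnmb was at 11.02, 10.93, 9.08 and 10.69 in KC and between 10.66 and 11.01 in KT. Neither cell type passed, with adjusted p-values of 0.877 and 0.980, or 0.738 and 0.947 without replicate 4. Of 11 genes of lipid-associated macrophages, Lgals3, the galectin-3 gene, was the 1 that passed in ET, higher by 1.08 (adjusted p = 0.000873), and the list median there was 0.39. Without replicate 4, Lgals3 was lower in KT by 0.68 (adjusted p = 0.0225).

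**Figure D2:**
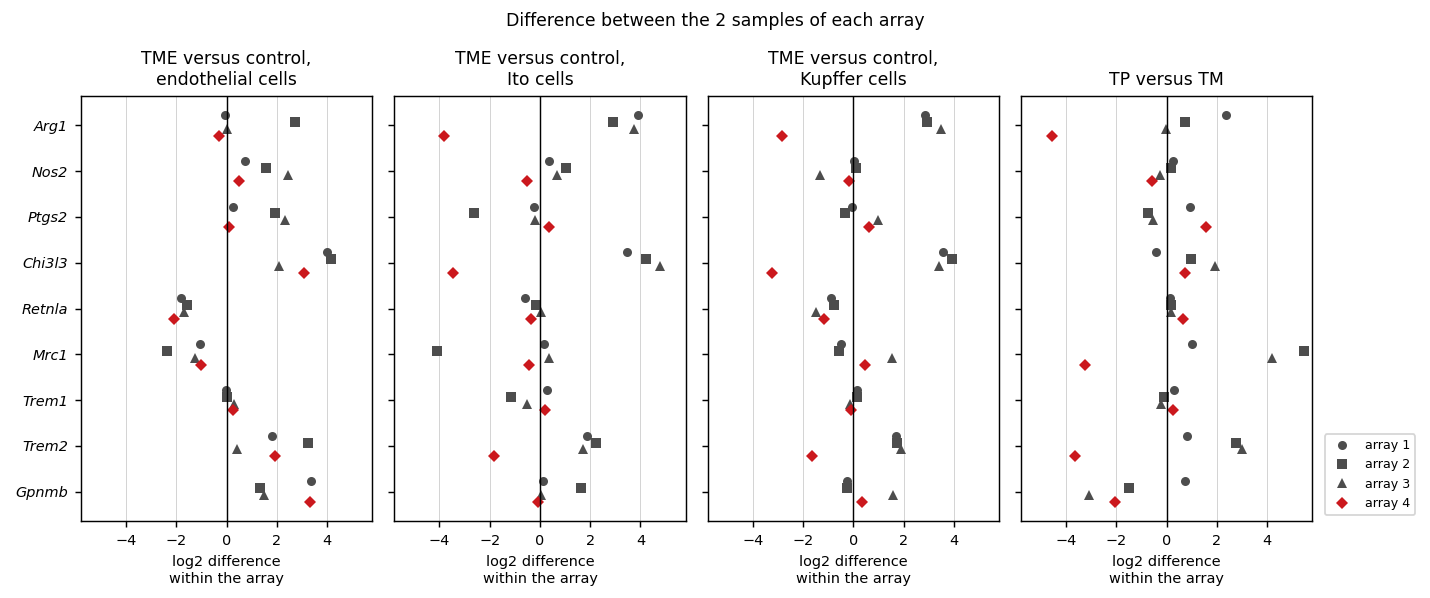
Difference in log2 level between the 2 samples of each array, for each gene and comparison, with array 4 in red. In Ito and Kupffer cells Arg1, Chi3l3 and Trem2 are above 0 on arrays 1 to 3 and below 0 on array 4, while in endothelial cells Chi3l3 is above 0 and Retnla below 0 on all 4.

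Markers of other cell types moved with the same arrays as Arg1, Chi3l3 and Trem2. The mean level of 12 neutrophil markers was 6.40, 6.73, 6.33 and 8.94 in IC and 8.88, 10.07, 8.41 and 6.67 in IT. It was 7.35, 7.26, 7.65 and 8.98 in KC and 8.78, 8.77, 8.81 and 7.35 in KT, and 6.42 to 7.02 in EC against 7.86 to 9.20 in ET. Of the 12, 7 were well above background in all samples of IC, IT and KC and 9 in KT and ET, and Cxcr2 was in none of the Ito and Kupffer samples. The 6 monocyte markers measured were at 8.75 to 8.92 in IC replicates 1 to 3 and 11.10 in replicate 4, and at 11.09, 9.62, 10.92 and 8.77 in IT. In Kupffer cells they were at 10.41, 10.34, 9.41 and 11.22 in KC and 11.50, 11.49, 11.50 and 10.05 in KT. The 12 Kupffer cell markers were at 12.30, 12.31, 12.27 and 13.78 in IC and 13.64, 10.61, 13.55 and 12.40 in IT, and at 13.20, 13.10, 12.24 and 13.98 in KC and 13.82, 13.81, 13.81 and 13.23 in KT. They too were higher in the TME sample on arrays 1 and 3 in Ito cells and on arrays 1 to 3 in Kupffer cells and lower on array 4. The 5 erythrocyte markers were at 8.49, 8.42, 8.54 and 10.40 in IC and 10.36, 9.16, 10.04 and 8.59 in IT, and between 7.55 and 7.78 in all KC and KT samples. Chi3l3 is also made by neutrophils and monocytes. The part of these cells in the levels of Arg1, Chi3l3 and Trem2 was not tested.

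**Figure D3:**
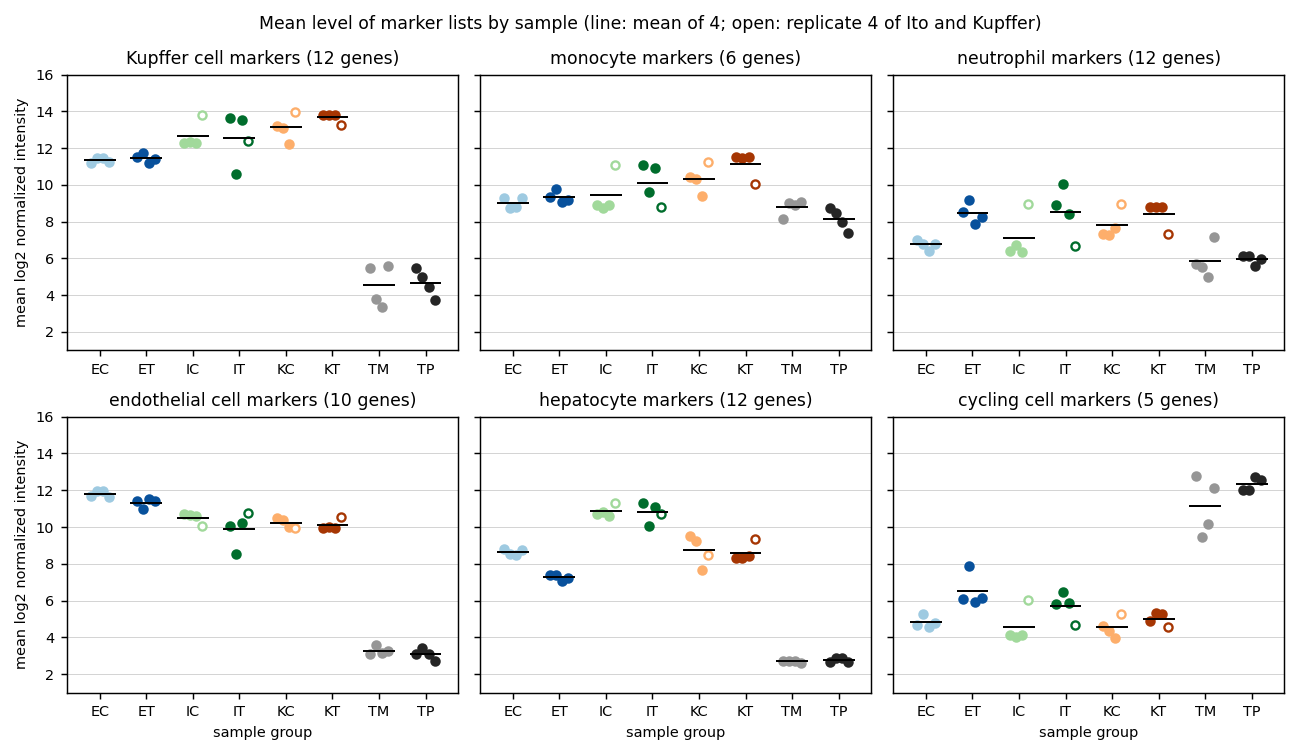
Mean log2 level of the genes of 6 marker lists in every sample, with lines for means of 4 and open points for replicate 4 of the Ito and Kupffer groups. Neutrophil and monocyte markers show the same exchange of the open points between control and TME samples as Arg1, Chi3l3 and Trem2, and Kupffer, endothelial and hepatocyte markers are low in TM and TP.

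The second question was how the genes differed between the control cell types. Ptgs2, Trem1 and Gpnmb were lowest in endothelial cells, with Ptgs2 higher by 3.61 ± 0.53 in Ito and by 2.94 ± 0.53 in Kupffer cells, and Nos2 was highest in Kupffer cells. In KC against EC, 5 of 9 members were called higher and none lower, while 8.95% of all probes were higher and 12.1% lower. These were Nos2, Ptgs2, Trem1, Trem2 and Gpnmb. In KC against IC, 3 were higher and none lower, beside 7.24 and 7.57% of all probes, and in IC against EC 3 were higher and 1 lower, beside 4.17 and 5.72%. Without replicate 4 of the Ito and Kupffer groups, 4 were higher in KC than in EC (8.98% of all probes, with 11.4% lower), 2 in KC than in IC (7.01%, with 7.05% lower), and 3 higher and 1 lower in IC than in EC (5.13 and 6.59%). With EC replicates 1 and 4 counted as 1 sample, 4 were higher in KC than in EC (8.01%, with 10.8% lower), and 3 higher and 1 lower in IC (3.48 and 4.90%).

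The EC means, with replicates 1 and 4 counted as 1 sample (n = 3), were 12.33 ± 1.03 (SD) for Nos2, 8.34 ± 1.31 for Ptgs2, 6.52 ± 0.14 for Trem1, 7.39 ± 0.64 for Trem2 and 7.90 ± 0.86 for Gpnmb. The KC means (n = 4) were 14.22 ± 0.63, 11.65 ± 0.57, 8.62 ± 0.26, 9.97 ± 0.96 and 10.43 ± 0.91 in the same order. The differences that follow are from the fit with all 4 EC samples unless stated, and so differ from those of these means. Nos2 in KC was above EC by 1.59 ± 0.36 (adjusted p = 0.00182), but by 1.00 with an adjusted p of 0.116 without replicate 3, the number of the high KC sample. It was also lost where only KC and EC were fitted (0.0842). Ptgs2 was above by 2.94 ± 0.53 (adjusted p = 0.000167) and Trem1 by 2.10 ± 0.18 (adjusted p = 3.60e-09), and both passed in every alternative. Gpnmb was above by 2.77 ± 0.54 (adjusted p = 0.000393). With EC replicates 1 and 4 counted as 1 sample, the difference was 1.88 ± 0.36 for Nos2 (adjusted p = 0.000493) and 3.32 ± 0.55 for Ptgs2 (8.60e-05). For Trem1 it was 2.10 ± 0.19 (3.55e-08) and for Gpnmb 2.53 ± 0.58 (0.00253). The differences without replicate 4 of the Ito and Kupffer groups were 1.70 ± 0.40 for Nos2 (adjusted p = 0.00335), 2.98 ± 0.60 for Ptgs2 (0.000915), 2.09 ± 0.19 for Trem1 (9.61e-08) and 2.69 ± 0.63 for Gpnmb (0.00323). Trem2 was above by 2.76 ± 0.88 (adjusted p = 0.0247), a call that was lost without replicate 4 of the Ito and Kupffer groups (2.28 ± 0.90, adjusted p = 0.0815) and with EC replicates 1 and 4 counted as 1 sample (2.57 ± 0.97, adjusted p = 0.0654). It was also lost without replicate 1 of all groups (adjusted p = 0.118) or without replicate 3 (0.0530). Mrc1 was lower in KC by 2.53 ± 1.07, which did not pass (adjusted p = 0.100). It passed where only KC and EC were fitted (0.00582), after normexp with loess (-2.27, 0.00602) or quantile normalization (-2.31, 0.0107), and in the methods' t-test (0.0172), and not without replicate 4 of the Ito and Kupffer groups (0.166).

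In Ito cells Ptgs2, Trem1 and Gpnmb were above EC by 3.61 ± 0.53, 1.52 ± 0.18 and 2.76 ± 0.54, with adjusted p-values of 3.89e-05, 1.83e-06 and 0.00102. With EC replicates 1 and 4 counted as 1 sample these were 3.23e-05, 1.17e-05 and 0.00619, and without replicate 4 of the Ito and Kupffer groups 0.000211, 4.84e-06 and 0.00468. Trem1 in KC was above IC by 0.58 ± 0.18 (adjusted p = 0.0252), a small step that was lost without replicate 4 of the Ito and Kupffer groups (0.45 ± 0.21, adjusted p = 0.173) and without KC replicate 3 (0.46, adjusted p = 0.105). It was lost too without replicate 1 of all groups (0.144) or without replicate 3 (0.0752). Nos2 in KC was above IC by 2.26 ± 0.36 (adjusted p = 7.97e-05), and by 2.45 (0.000325) without replicate 4. Retnla, not well above background in any IC sample, was at least 1.15-fold lower in IC than in EC (adjusted p = 5.53e-07, or 3.92e-06 with EC replicates 1 and 4 counted as 1 sample). It was higher in KC than in IC (adjusted p = 1.32e-07), with no fold given since only 1 KC sample was well above background. Arg1 and Chi3l3 did not differ past the threshold between any control groups, and in IC and KC the libraries labelled replicate 4 set their spread, with an SD of 1.99 and 1.59 for Arg1 against 0.14 and 0.36 without them.

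The pathway lists showed a wider set of genes higher in KC than in EC. With all samples, 21.0% of all probes passed there, 8.95% higher and 12.1% lower. Of 20 classical activation genes 10 were higher and 1 lower (median 1.25, beside 0.00 over all probes), among them the costimulatory genes Cd80 (2.69), Cd86 (2.52) and Cd40 (1.95) and the transcription factor gene Irf5 (2.51). Of 23 alternative activation genes 6 were higher and none lower (median 0.55), with Irf4 (3.39), Il10 (3.62), Il1rn (3.17) and the scavenger receptor Cd163, which was not above background in any EC sample. Of 9 genes of TREM and DAP12 signalling 6 were higher (median 2.20), with the kinase Syk (3.51), Plcg2 (2.76), Hcst (2.20) and Lcp2 (1.62). Of 11 lipid-associated genes 6 were higher (median 1.12), led by Lgals3 (2.27) and Itgax (2.24). Of the 13 arginine and nitric oxide genes 5 were higher and 4 lower (median 0.72). The endothelial synthase Nos3 (-2.55) and Ddah1 (-1.84) were among the lower and the arginine carrier Slc7a2 (2.18) among the higher. Of 14 prostaglandin genes 5 were higher, Hpgds (3.11) and Pla2g4a (2.06) among them, and Ptges3 (-0.74) was lower. Of 15 relatives of the members 4 were higher, the TREM cluster genes Treml2 (3.54), Treml4 (2.46) and Trem3 and the receptor gene Mrc2, of which the latter pair was not above background in any EC sample. Both activation programs thus had more genes higher than lower, while over all probes fewer were higher than lower. Leaving out replicate 4 of the Ito and Kupffer groups, where 20.4% of all probes passed, the counts higher and lower were 9 and 1 for classical and 6 and 0 for alternative activation, 5 and 0 for TREM signalling, 4 and 0 for lipid-associated genes, 6 and 4 for arginine genes, 3 and 1 for prostaglandin genes and 4 and 0 for the relatives.

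**Figure D4:**
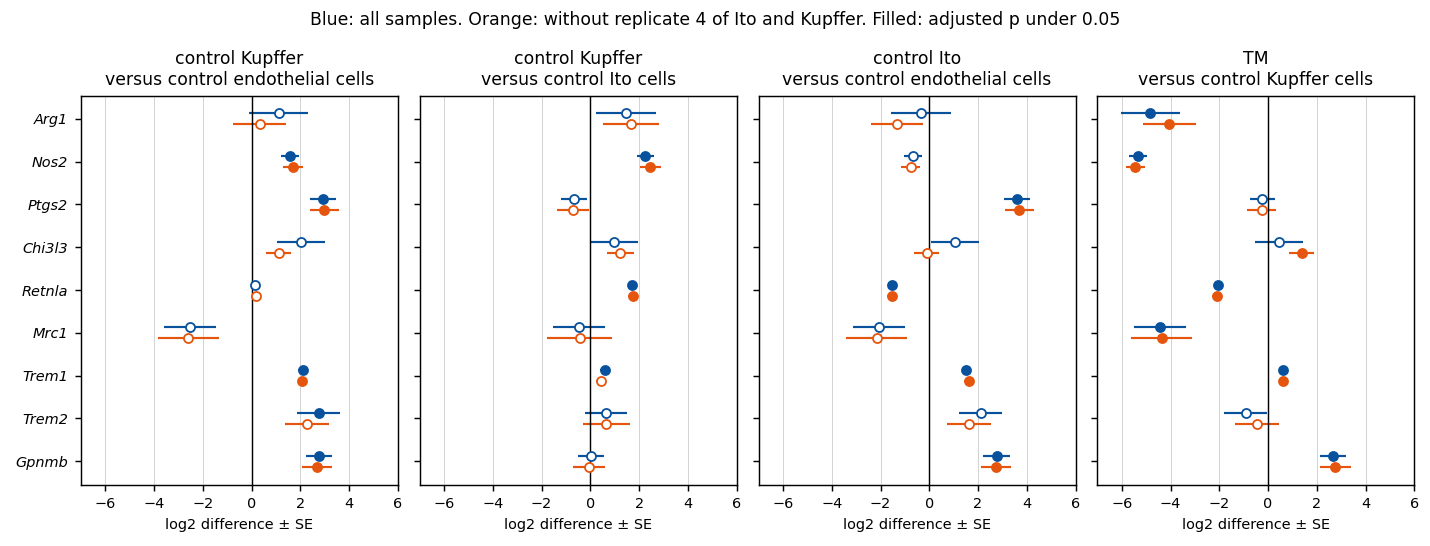
Log2 difference with its standard error for each gene in 4 comparisons, with all samples in blue and without replicate 4 of the Ito and Kupffer groups in orange. Filled points have an adjusted p under 0.05. Trem2 in KC against EC and Trem1 in KC against IC are filled in blue and open in orange, and Chi3l3 in TM against KC is open in blue and filled in orange.

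The third question was how the tumor cells compared with each other and with the resident macrophages. TM against KC had 4 members lower, namely Arg1, Nos2, Retnla and Mrc1, and 2 higher, Gpnmb and Trem1, while 16.2% of all probes were lower and 23.3% higher. Without replicate 4 of the Ito and Kupffer groups 4 were lower and 3 higher, against 16.1 and 22.1%. Between TP and TM no member was called, where 2.05% of all probes were higher and 0.961% lower. The groups TP and TM did not overlap for 1 member, Retnla, against 10.6% of all probes, and none of its levels there, from 2.26 to 2.93, was well above background. In TP against TM, 1 member, Gpnmb, had an unadjusted p under 0.05 by limma, and the methods' t-test called none after adjustment.

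In TM Arg1 was at 5.64, 4.19, 2.37 and 8.46 and in TP at 8.001, 4.90, 2.34 and 3.88, well above background in 2 and 1 samples. Every TM sample was below every KC sample, with a difference of -4.83 ± 1.22 (adjusted p = 0.00192), a call that the methods' t-test did not make (0.0576). The difference was -4.05 ± 1.08 without replicate 4 of the Ito and Kupffer groups (adjusted p = 0.00394), and after normexp and quantile normalization -2.96. Nos2 was steady, between 8.65 and 8.98 in TM and 8.36 and 9.15 in TP, and lower in TM than in KC, with a difference of -5.33 ± 0.36, or 40.2-fold (adjusted p = 1.62e-12), and of -5.44 (1.09e-10) without replicate 4. Retnla was not well above background in any tumor sample and lower in TM than in KC (adjusted p = 4.21e-11), with no fold given. Chi3l3 was above background in 3 TM and 4 TP samples, at 6.27, 5.81, 4.46 and 5.83 in TM and between 5.86 and 6.77 in TP. It did not differ past the threshold from KC (0.45 ± 0.99, adjusted p = 0.792), and without replicate 4 of the Ito and Kupffer groups it was higher in TM by 1.37 ± 0.51 (adjusted p = 0.0387). The direction was not stable, with -0.053 without replicate 1 of all groups, -0.053 without replicate 2 and -0.019 after normexp and loess.

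Mrc1 and Trem2 split the TM samples. Mrc1 was at 8.11, 2.24, 3.11 and 9.37 in TM and at 9.10, 7.71, 7.31 and 6.12 in TP, and Trem2 at 10.53, 7.45, 6.61 and 11.61 in TM and 11.32, 10.23, 9.61 and 7.95 in TP. TM replicates 1 and 4 were high in both genes and TM replicates 2 and 3 low. This split was not particular to these genes. Over 17104 probes, TM replicates 1 and 4 differed by a root mean square of 0.410 and replicates 2 and 3 by 0.286. Pairs across the split differed by 0.847 to 0.875. The 5 cycling cell markers had mean levels of 12.76, 9.43, 10.17 and 12.14 in TM. Tyrobp, the adaptor of Trem2, was at 10.91, 7.82, 6.07 and 11.81 in TM, and the Kupffer cell markers had mean levels of 5.46, 3.80, 3.33 and 5.61, in the order of samples that Trem2 had. Mrc1 was lower in TM than in KC (-4.42 ± 1.07, adjusted p = 0.00130), though the groups overlapped and the call was lost where only TM and KC were fitted (0.0919) and in the methods' t-test (0.126). The difference was -4.36 without replicate 4 of the Ito and Kupffer groups (adjusted p = 0.00694). Trem2 did not pass (-0.92 ± 0.88, adjusted p = 0.469).

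Gpnmb ran against this split. It was at 11.77, 14.22, 13.79 and 12.62 in TM and at 12.52, 12.70, 10.68 and 10.58 in TP, highest in the TM samples with the least Mrc1 and Trem2. TM was above KC by 2.67 ± 0.54, or 6.36-fold (adjusted p = 0.000180), with no overlap, and by 2.76 (0.000937) without replicate 4 of the Ito and Kupffer groups. TP was below TM by 1.48 ± 0.54, which did not pass (adjusted p = 0.143), and without replicate 1 of all groups the difference was -2.22 with an adjusted p of 0.0480. Trem1 was between 9.11 and 9.50 in TM and 8.90 and 9.46 in TP, above KC by 0.61 ± 0.18 (adjusted p = 0.00623), or 0.62 (0.0122) without replicate 4 of the Ito and Kupffer groups, which was lost without replicate 1 of all groups (0.0511) or without replicate 2 (0.0588). Ptgs2 was between 10.42 and 12.23 in TM and 11.45 and 11.98 in TP and did not differ past the threshold from KC (adjusted p = 0.801).

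Around the members, most genes of the activation, TREM and lipid-associated lists were lower in TM than in KC. With all samples, 39.4% of all probes passed there, 23.3% higher and 16.2% lower. Of 20 classical activation genes 17 were lower and none higher (median -7.68, beside 0.08 over all probes), and Cd40, Cd86, Cxcl9 and Cxcl10 were not above background in any TM sample. Of 23 alternative activation genes 18 were lower and 1 higher (median -3.51), and of 9 TREM and DAP12 genes 8 were lower, Syk by 6.09 and Plcg2 by 5.51. Of 11 lipid-associated genes 8 were lower, among them Apoe by 7.24, and 2 higher, Spp1 (6.64), the osteopontin gene, and Cd9 (3.00). Of 13 arginine genes 7 were lower, Arg2 by 9.26 among them, and none higher. Of 14 prostaglandin genes 6 were lower and 3 higher, with the constitutive cyclooxygenase Ptgs1 at 13.47 in TM and 9.61 in KC. Of the 15 relatives 4 were lower, Treml4 (-2.98) and, not above background in any TM sample, Treml2 and Trem3 among them, and 2 higher, Mrc2 (3.80) among them. Leaving out replicate 4 of the Ito and Kupffer groups, where 38.2% of all probes passed, the counts lower were 17, 19, 7, 8, 8, 6 and 3 in the same order and those higher 0, 1, 0, 2, 0, 3 and 2. Between TP and TM, Stat6 (-1.68) and Itgax (2.28) passed, as did Ptger3, not above background in any TM sample. Stat6 was well above background in 2 TP and 4 TM samples, and Itgax in 3 and 2.

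Ordered by group means over all samples, all 4 EC samples included, neighbouring groups mostly did not differ past the threshold. For Nos2 the order was KC, ET, KT, EC, IT, IC, TM and TP, and the steps from KT to EC (1.25, adjusted p = 0.0105) and from IC to TM (3.07, adjusted p = 6.35e-08) were the ones that passed. With EC replicates 1 and 4 counted as 1 sample the EC mean of 12.33 falls just below that of IT (12.35), and the steps were not tested in that setting. For Arg1 the order was KT, IT, KC, ET, EC, IC, TM and TP, and only the step from IC to TM passed (3.38, adjusted p = 0.0288), which without replicate 4 of the Ito and Kupffer groups was 2.39 (adjusted p = 0.0906). For Chi3l3 and Mrc1 no step passed with all samples. For Ptgs2 the step from TM to ET passed (1.55, adjusted p = 0.0232), and for Gpnmb, from TM at the top to EC at the bottom, the step from ET to EC. For Trem1 the steps from TM to KT (0.60, adjusted p = 0.00702), KC to IC and IT to ET (1.09, adjusted p = 0.000162) passed.

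As a description, the named genes whose level ran most alike over the 32 samples, of 19434 genes compared, were Sirpb1a for Arg1 (r = 0.942), Ppp1r3d for Nos2 (r = 0.960), Tmem135 for Chi3l3 (r = 0.837), Gnai2 for Retnla (r = 0.785, of 19435 genes), Pros1 for Mrc1 (r = 0.951), Krtap5-1 for Ptgs2 (r = 0.885), Tmem158 for Trem1 (r = 0.953), Arl11 for Trem2 (r = 0.881) and Abcc4 for Gpnmb (r = 0.877). The 32 points share arrays, slides and the normalization. Over the 24 liver cell samples alone r was between 0.768 (Retnla) and 0.950 (Arg1).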

How the data were processed

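The authors hybridised 32 samples to 16 Agilent mouse arrays, and per the file headers the scans were read with Feature Extraction 10.7.3.1. The deposited table holds linear intensities, which the authors had quantile normalized, and its log2 values were the levels used here. Scanner intensities as deposited gave the background flags, the bounds and the alternatives. Spots of a probe were averaged. Groups came from the sample labels, and probe positions are on mm9, per the file headers.

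A linear model with 1 mean for each of the 8 groups was fitted over all 55681 probes with limma 3.58.1 (lmFit and eBayes, R 4.3.3), and p-values were adjusted by Benjamini-Hochberg over all probes. A call is an adjusted p under 0.05. Differences are given ± SE and levels as mean ± SD. The analysis was tested on simulated data. The number of arrays limits the precision, and no spot was saturated.

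The genes and lists were chosen with earlier results of these data known. All 9 genes are named, and from each pathway list up to 4 genes by the smallest adjusted p among those called. The alternatives were other normalizations, normexp with an offset of 50, scaling to the 75th percentile, a filter on dim probes (29013 kept), a stricter threshold, fits of only the groups compared, the methods' t-test, the array as a block, and leaving out replicates. Averaging the alike EC samples and leaving out ET replicate 2 or KC replicate 3 were added after seeing the data. The sequence of 1 probe and 1 of the motifs searched are not reported here.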

Additional observations from a re-analysis of the deposited data

Results flagged for a closer look

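Within a group of 4, a sample was singled out when its gap to the nearest other sample took up an unusually large part of the group's range, which chance alone brings about in about 1 in 20 groups. The libraries labelled replicate 4 of the Ito and Kupffer groups were singled out for Arg1 (11.53 in IC, 9.50 in KT), Nos2 (12.22 in IC), Chi3l3 (4.24 in IT, 7.92 in KC, 4.68 in KT) and Trem2 (10.80 in IC, 11.40 in KC, 9.75 in KT). IT replicate 2 was singled out for Retnla (2.59), Mrc1 (6.46), Ptgs2 (9.69), Trem1 (7.29) and Gpnmb (12.15), of which Mrc1, Ptgs2 and Trem1 were the low side and the other pair the high side. KC replicate 3 was singled out for Nos2 (15.17), ET replicate 2 for Trem2 (11.09), TM replicate 1 for Nos2 (8.65), TP replicate 3 for Trem1 (8.90) and TP replicate 4 for Retnla (2.93).

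The TME change of Retnla differed between Ito and endothelial cells by 1.54 (limma adjusted p = 0.00376), with Retnla well above background in no IC, IT or ET sample.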

How the results depend on the processing

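Of 22 member differences called, 13 kept direction and call at an adjusted p under 0.05 in every alternative that gave a value, 9 lost the call under at least 1 and none changed direction. The filter on dim probes gave no value for Retnla, and the stricter threshold, which keeps 8 of the calls, is not counted there. With an adjusted p under 0.001 and at least 4-fold, the members called were 0 higher and 0 lower in ET against EC, 0 lower in KT, 3 higher in KC against EC, 1 higher in KC against IC, 1 higher and 0 lower in IC against EC, 1 higher and 2 lower in TM against KC, and 0 for the Ito minus endothelial change. The filter on dim probes gave 2 higher and 0 lower in ET, 0 lower in KT, 0 lower in IC against EC and 0 for that change, since it leaves Retnla out. Fitting only the groups compared gave 2 higher and 2 lower in ET, 0 lower in KT, 1 lower in KC and 2 lower in IC against EC. The methods' t-test gave 0 lower in KT, 1 lower in KC and 2 lower in IC against EC, and 2 lower in TM against KC. Both normexp settings gave 1 lower in KC and 2 lower in IC against EC and 0 for the Ito minus endothelial change. Without replicate 4 of the Ito and Kupffer groups 2 members were higher in ET, 1 in IT and 1 in KT. Chosen after seeing the data, leaving out ET replicate 2 or KC replicate 3 gave 2 higher in ET.

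Leaving out each replicate number in turn gave 0 to 1 higher in ET, 0 to 2 in IT, 0 to 1 in KT, 0 to 1 lower in TP against TM, 3 to 5 higher in KC against EC, 1 to 2 higher in TM against KC and 0 to 1 for the Ito minus endothelial change. Chi3l3 in TM against KC, 0.45 with all samples, was -0.019 after normexp and loess, and between -0.053 and 1.29 with a replicate left out. The causes were not tested.

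Samples of 1 number share an array, but their deviations from the group means correlated between -0.645 and 0.403, so the numbers were not taken to pair them. With the replicate number as a fixed block Retnla in KT (adjusted p = 0.412) and Gpnmb in ET (0.0835) lost the call, leaving 0 members lower in KT, and Chi3l3 in ET gained it (0.0349). With the array as a block of estimated correlation (0.0783) no count of calls changed. Of 324 group means under other normalizations or, for the Ito and Kupffer groups, without replicate 4, 43 moved by 1 SD or more. Levels near background, as of Retnla, have only bounds or no fold.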
